A study of Mus musculus with 6 samples.

Results

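The nuclear-encoded respiratory chain is described here in dendritic cells grown from mouse bone marrow, with or without Cre targeting of the HIF-2α gene. Members were chosen by gene name: Ndufa, Ndufb, Ndufc, Ndufs and Ndufv genes (complex I, without the Ndufaf assembly factors), Sdha to Sdhd (complex II), Uqc genes and Cyc1 (complex III), Cox4 to Cox8 genes (complex IV) and Atp5 genes (complex V), leaving out names with -ps. This gave 85 of the 30587 rows of the table, with 38, 4, 12, 15 and 16 in complexes I to V. All mice were of the strain C57BL/6. WT libraries (n = 3) came from mice with floxed Hif2a alleles (Hif2afl/fl), and KO libraries (n = 3) from mice that carried the same floxed alleles and a CD11c-Cre transgene, which acts only in cells that use the CD11c promoter. Both genotypes received DMOG for 24 h, which blocks the enzymes that tag HIF proteins for breakdown, and then for 4 h the glycolipid α-galactosylceramide. The study asked how HIF-2α acts on glycolipid priming by dendritic cells. No library without these treatments was analysed here, and whether libraries of a genotype stem from different animals or cultures is not in the labels. The p-values therefore reflect spread among libraries, part of which may be technical.

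The respiratory chain sits in the inner mitochondrial membrane. Complexes I and II pass electrons from NADH and succinate to coenzyme Q, complex III passes them to cytochrome c, and complex IV hands them to oxygen. Protons pumped on the way drive complex V, the ATP synthase. The chain is the main consumer of oxygen in the cell, and several of its subunits have paralogs whose use differs between tissues or with oxygen supply. Among these, COX4I2 and NDUFA4L2 are known from other cells as products induced in low oxygen.

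Total counts ran from 14668641 to 17884160 per library, and 13249 rows had enough counts for a test. Epas1, the gene of HIF-2α, fell from 22.2 ± 1.94 CPM in WT to 11.2 ± 1.55 CPM in KO (mean ± SD, n = 3 each; CPM, counts scaled to a common library size), a log2 fold change of -0.98 ± 0.12 (SE; edgeR adjusted p = 3.45e-05). Reads of Epas1 thus remained in KO, and counts over the whole gene do not show how much HIF-2α protein was left. Markers of dendritic cells summed to between 6231 and 6389 CPM in WT and between 5789 and 6491 CPM in KO, and 9 of their 10 genes passed the count filter. The overlapping sums hold opposite changes: Ccr7, Zbtb46, Irf8 and Flt3 rose, and H2-Ab1, Cd74 and Irf4 fell. These were 7 of 9 tested genes (77.8%) at an edgeR adjusted p under 0.05. Among lists of other cell types, 5 of 10 tested macrophage genes rose (50%). Of 6 tested neutrophil genes 2 rose and 1 fell (50% called), and of 3 tested mast cell or basophil genes 2 rose (66.7%). Of all tested genes 25.8% were called at that threshold, 13.8% higher and 12% lower. The summed macrophage list (10 of 10 tested) ran from 3580 to 3806 CPM in WT and from 3698 to 4212 CPM in KO, and the neutrophil list (6 of 10 tested) from 619 to 691 CPM and from 423 to 480 CPM. The neutrophil sum was mostly Mmp8, the gene that fell (603 CPM in WT and 398 CPM in KO on average), while Ngp and Camp rose. Mast cell and basophil genes (3 of 7 tested) summed to between 46.2 and 51.9 CPM in WT and between 74.2 and 79.2 CPM in KO, nearly all of it Kit (48.8 and 73.9 CPM on average), whereas no lymphocyte or erythroid marker passed the filter and their sums stayed at or under 2.01 CPM. The table holds no row at 0 in all libraries, so a marker without any read would be absent from these lists. The part of these cells in the results below was not tested. WT 2 and KO 1 stood apart, with reads in 25408 and 22275 rows of the table, where the remaining libraries had reads in 18763 to 19513.

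Most respiratory chain genes did not change detectably between the genotypes. Of the 85 members, 83 were tested, 10 fell and 3 rose (edgeR quasi-likelihood test, Benjamini-Hochberg adjusted p under 0.05 over all genes). That is 15.7% of the members, while 25.8% of all tested genes were called, 13.8% higher and 12% lower. The share of members that fell, 12%, was that of all genes, and 3.61% rose. The balance of directions depended on the scaling, with 8 lower and 7 higher under an offset for GC content and exon length and 5 and 5 under library size alone. The genes that fell were Ndufv3, Ndufa4l2, Ndufb5 and Ndufb7 of complex I, Uqcrfs1 of complex III, Cox7a2l, Cox7a1 and Cox7c of complex IV, and Atp5j and Atp5s of complex V. Those that rose were Ndufs8 of complex I and Cyc1 and Uqcc2 of complex III. The median log2 fold change over the 83 members was -0.07, against -0.009 over all genes tested, with 57 members below 0 and 26 above. By complex the medians were -0.03, -0.03, -0.04, -0.14 and -0.12 for complexes I to V. The shares of tested members called were 13.2%, 0%, 25%, 23.1% and 12.5% in the same order.

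Changes were small. Only 9 members (10.8%) had a fold change of at least 1.25 in either direction, against 28.2% of all tested genes, and 2 members, Ndufa4l2 and Cox7a1, changed at least 2-fold. For 48 of the 70 members that were not called, the 95% interval of the log2 fold change lay inside the bounds of a 1.25-fold change, and for 67 inside those of a 1.5-fold change. The remaining 3 were Ndufb2, Ndufb9 and Cox6a2, none with more than 75 reads in a library. Genotypes did not overlap in CPM for 7 members that were higher in KO and 12 that were lower, 19 of 83, against 40.4% of all genes tested.

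**Figure D1:**
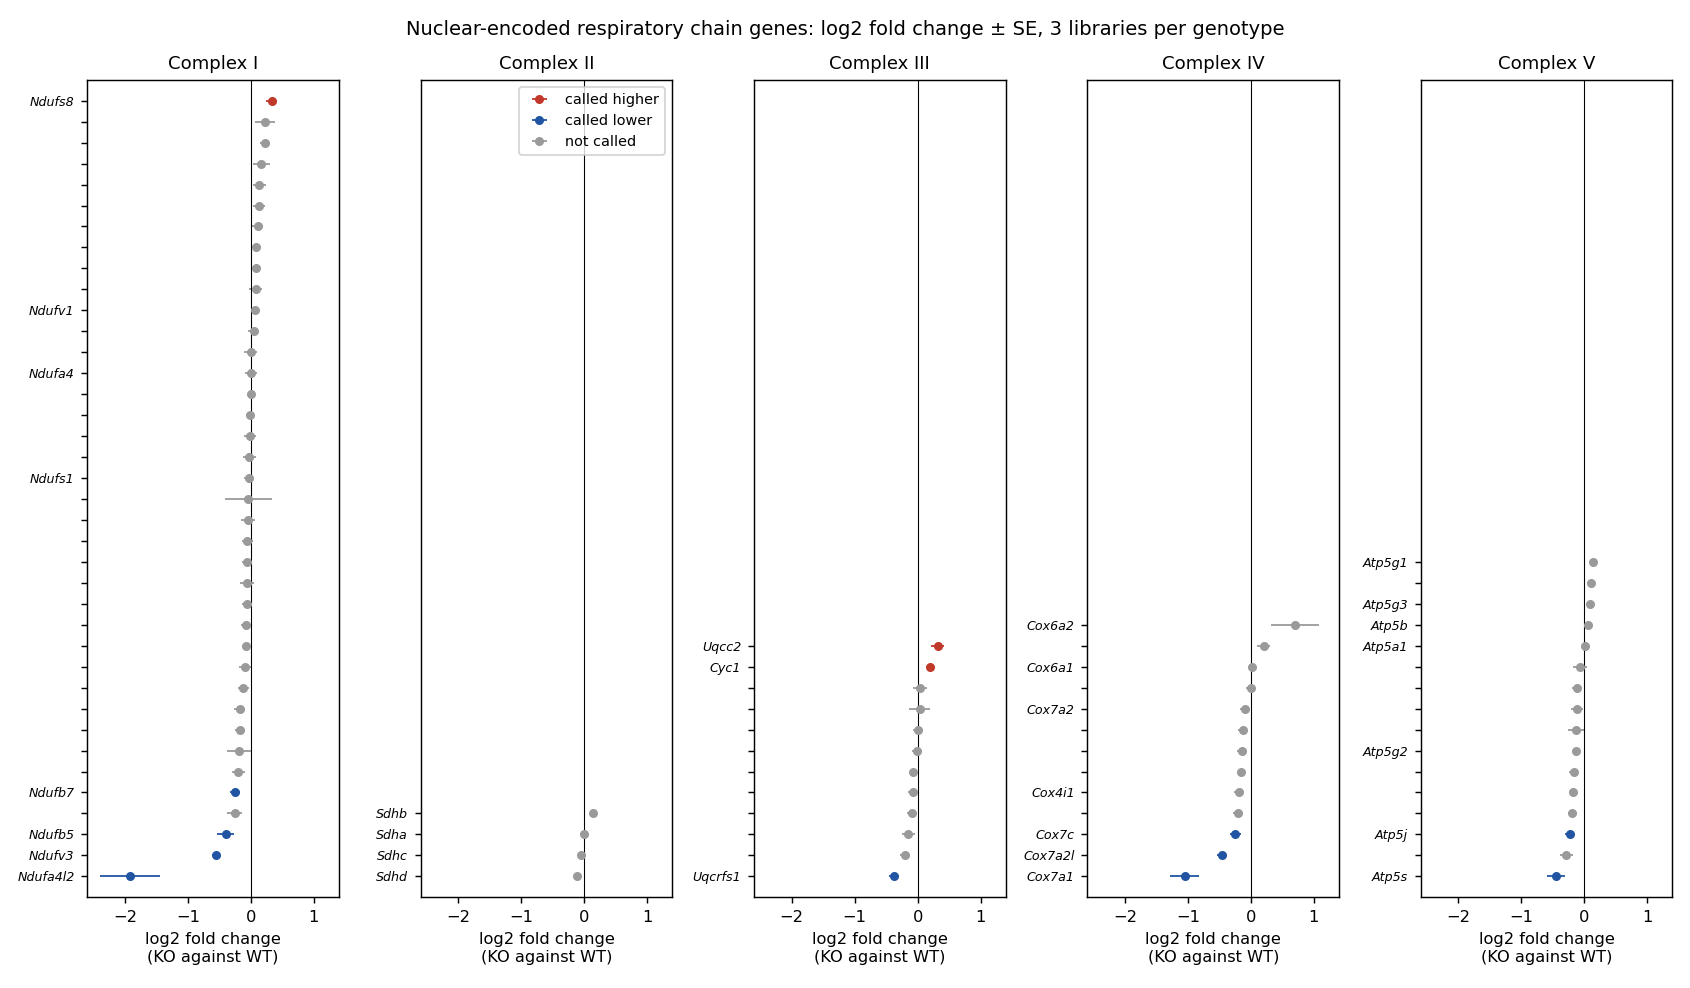
Log2 fold change of KO against WT (x axis, with SE bars) for each of the 83 tested members, sorted within complexes I to V; colour marks the 10 members called lower, the 3 called higher and the 70 not called at an adjusted p under 0.05, and names stand beside the members chosen for description. Most points lie close to 0, and the farthest are Ndufa4l2 at -1.93 and Cox7a1 at -1.05.

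Calls among the members rested on few libraries in several cases. Without KO 1 or without WT 3, the number that fell was 19 and 15, and without WT 1, WT 2, KO 2 or KO 3 it was 5, 4, 6 and 4. The number that rose was 2, 3 and 0 without KO 1, KO 2 and KO 3, and 1, 2 and 1 without WT 1, WT 2 and WT 3. Without WT 2 and KO 1 together 9 fell and 3 rose. The shares of all genes called lower were 12% and 10% in the first 2 of these fits, 7.58%, 8.05%, 9.47% and 6.96% without WT 1, WT 2, KO 2 and KO 3, and 9.78% without both. The shares called higher were 14.7%, 11.6% and 8.7% without KO 1, KO 2 and KO 3, 9.86%, 9.91% and 13% without WT 1, WT 2 and WT 3, and 12.3% without both. The 4 genes called lower in every one of the 15 alternative fits were Ndufv3, Cox7a2l, Uqcrfs1 and Cox7a1, and no member was called higher in all of them.

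Short transcripts in general shifted between libraries, and the part of this in the members' values was not tested. Their median mRNA length was 861 bases, against 2727 over all tested genes. Relative to each gene's mean over the 6 libraries, the median member stood at a log2 deviation of 0.05, 0.13 and -0.08 in WT 1, 2 and 3 and of 0.04, -0.11 and -0.009 in KO 1, 2 and 3. The genotypes therefore overlapped, with WT 2 highest and KO 2 lowest. The 1075 other tested genes no longer than 861 bases showed 0.11, 0.14 and -0.03 in WT and 0.005, -0.13 and -0.06 in KO, and their median log2 fold change was -0.16, with 16% called lower and 4.56% higher. With the offset for each library's dependence on GC content and exon length, 12.2% of all genes were lower and 13.7% higher, and with library size alone 9.75% and 16.1%. The DESeq2 Wald test called 10.4% of all genes lower and 12.7% higher, and edgeR without the low-count filter 4.95% and 6.39%.

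**Figure D2:**
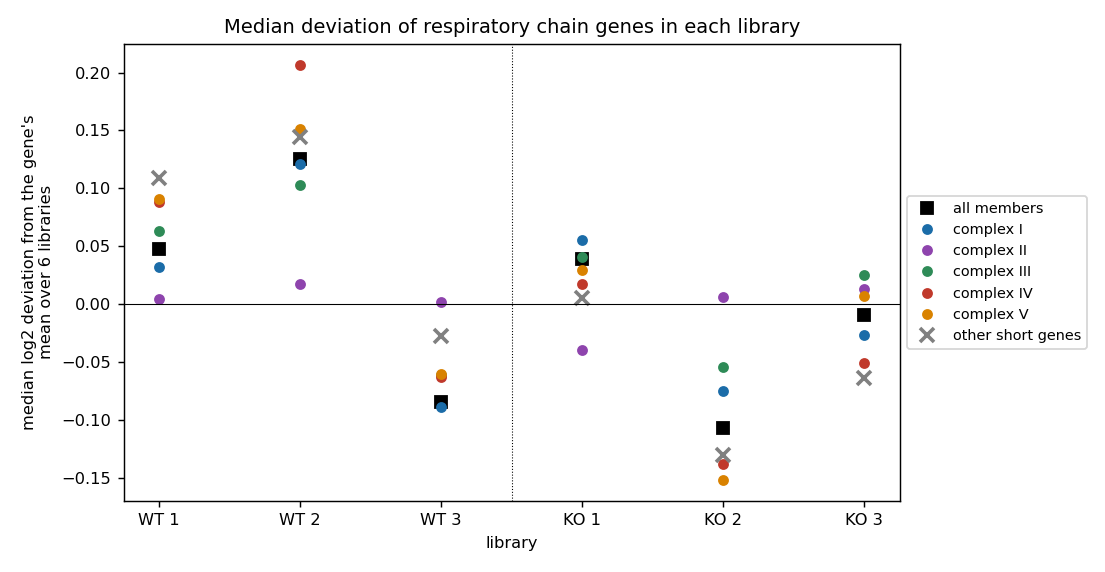
Median log2 deviation from each gene's mean over 6 libraries (y axis) in each library (x axis), for all tested members (squares), each complex (circles) and other tested genes no longer than the median member (crosses). WT 2 lies highest and KO 2 lowest for all members together, and the crosses take the same order there.

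Complex I, the NADH dehydrogenase, had 4 genes lower and 1 higher of 38. Ndufv3, which encodes an accessory protein of the NADH-oxidising arm (chromosome 17, 31520115 to 31531331, plus strand, GRCm38), stood at 74.1, 73.7 and 67.2 CPM in WT 1, 2 and 3 and at 51.6, 48.3 and 46.9 CPM in KO 1, 2 and 3. Every KO library lay below every WT library. The level in KO was 1.47-fold lower (-0.55 ± 0.07 on the log2 scale, edgeR adjusted p = 3.63e-05) and was called in all 15 alternatives. Ndufs8, encoding an iron-sulphur protein of the electron path to coenzyme Q, had 35.2, 37.9 and 29.3 CPM in WT and 45.0, 42.1 and 41.6 CPM in KO, all KO libraries being above all WT libraries. The rise was 1.26-fold (0.33 ± 0.09, edgeR adjusted p = 0.0167), and Ndufs8 missed the threshold without KO 3 (adjusted p = 0.05002). Ndufb5, for a membrane-arm accessory subunit, fell from 24.8 ± 5.23 to 18.8 ± 1.85 CPM (SD), a log2 fold change of -0.40 ± 0.13 (edgeR adjusted p = 0.042). WT 2 was highest at 30.6 CPM. The call held in 8 of 15 alternatives. It was lost with library size only, with the replicate block, without WT 2 and KO 1 together, and without WT 1, WT 2, KO 2 or KO 3, and without WT 2 the log2 fold change was -0.22. Of the Ndufb5 transcript sequence, 11.2% lies opposite other transcripts, chiefly Mrpl47, so reads of the other strand could be counted in it. Ndufb7, the remaining gene that fell and chosen after its values were seen, went from 89.8 ± 11.6 to 75.4 ± 4.71 CPM with overlapping genotypes (edgeR adjusted p = 0.0432) and was called in 8 of 15 alternatives.

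Among the catalytic subunits of complex I, Ndufs1, for the largest iron-sulphur subunit, averaged 37.7 ± 1.88 CPM (SD) in WT and 37.0 ± 1.80 CPM in KO, with a 95% interval of the log2 fold change from -0.19 to 0.13. Ndufv1, for the subunit that binds NADH and flavin, had 57.7 ± 2.09 and 60.1 ± 2.11 CPM (interval -0.07 to 0.19). Among 29 accessory genes 3 fell and 0 rose at the same threshold (10.3% called, against 25.8% of all tested genes). Of these 29, 5 had an unadjusted edgeR p under 0.05, as had 4933 of all 13249 tested genes. Ndufb2, chosen after its values were seen, was the lowest of the accessory genes at 10 to 22 reads per library.

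NDUFA4 and its paralog NDUFA4L2 carry complex I names, although NDUFA4 is now known as a complex IV subunit. Ndufa4l2 (chromosome 10, 127514967 to 127517154, plus strand) was read 12, 25 and 15 times in the WT libraries and 4, 7 and 4 times in the KO libraries, or 0.71, 1.62 and 1.02 CPM against 0.219, 0.415 and 0.232 CPM. Every KO library was below every WT library. The log2 fold change was -1.93 ± 0.48 (edgeR adjusted p = 0.00955), and the ratio of summed, scaled counts was 3.86-fold in favour of WT, with an exact 95% interval of 2.14 to 7.38 for counting error only. The call was lost when libraries were left out: the log2 fold change of Ndufa4l2 was -1.56 without WT 2, -1.80 without KO 3 and -1.39 without WT 2 and KO 1 together. Ndufa4 stood at 34.5, 38.2 and 33.2 CPM in WT and 37.5, 30.4 and 37.5 CPM in KO, so that the genotypes overlapped (log2 fold change -0.005 ± 0.09, interval -0.21 to 0.20). Per kilobase of mRNA, Ndufa4l2 made up 1.74 ± 0.598% of the pair in WT and 0.483 ± 0.247% in KO (SD, n = 3 each). The shares did not overlap, and the exact permutation p was 0.10, the smallest that 3 against 3 libraries allow (0.125 adjusted over 5 shares).

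**Figure D3:**
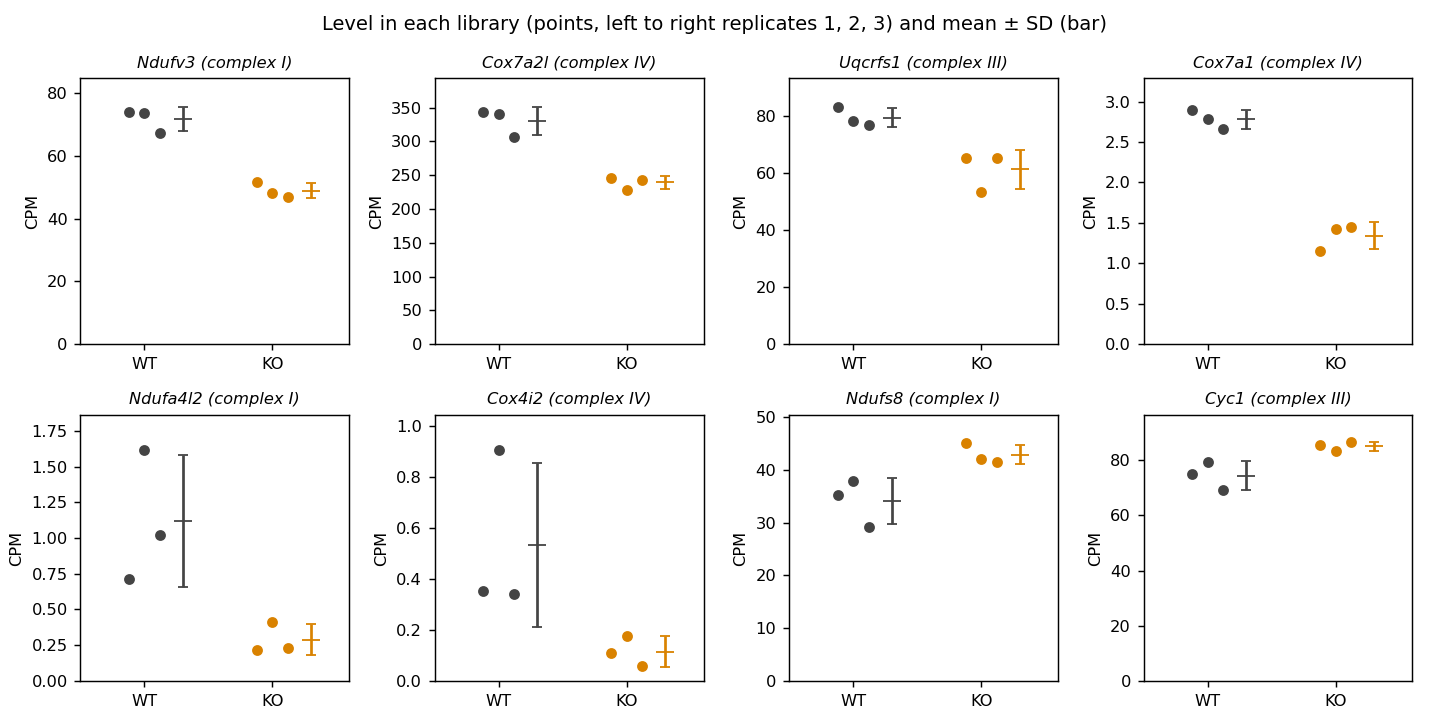
CPM in each library (points, replicates 1 to 3 from left to right) with the mean and SD (bar) for 8 members; each y axis starts at 0. In Ndufv3, Cox7a2l, Uqcrfs1, Cox7a1, Ndufa4l2 and Cox4i2 the 3 KO libraries lie below the 3 WT libraries, and in Ndufs8 and Cyc1 above them.

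Complex II, succinate dehydrogenase, links the chain to the TCA cycle and has no mitochondrially encoded part. None of its 4 genes was called by edgeR, and scaling to library size alone called 1 of them higher. Sdhb and Sdhd had an unadjusted edgeR p under 0.05, as had 4933 of all 13249 tested genes. Sdha, for the flavoprotein that oxidises succinate, had 298, 286 and 296 CPM in WT and 285, 300 and 289 CPM in KO, with a log2 fold change of -0.01 ± 0.06 (95% interval -0.14 to 0.12). Sdhb, for the iron-sulphur subunit, had 119, 119 and 114 CPM in WT and 127, 134 and 127 CPM in KO. The genotypes did not overlap, but the log2 fold change of 0.14 ± 0.05 did not pass (edgeR adjusted p = 0.0802). Of the membrane anchors, Sdhc had 106 ± 3.26 and 103 ± 5.28 CPM (SD; edgeR adjusted p = 0.617). Sdhd, which had 121 ± 5.61 and 111 ± 2.29 CPM, did not overlap between genotypes either and lay in the other direction from Sdhb (edgeR adjusted p = 0.131).

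Complex III, the cytochrome bc1 complex, had 1 gene lower and 2 higher of 12, and the pair of nuclear genes for its electron carriers went opposite ways. Uqcrfs1, for the Rieske iron-sulphur protein (chromosome 13, 30540308 to 30545362, minus strand), had 83.3, 78.3 and 76.8 CPM in WT and 65.3, 53.5 and 65.2 CPM in KO. All KO libraries lay below all WT libraries, and the drop was -0.37 ± 0.08 on the log2 scale (edgeR adjusted p = 0.00308). Cyc1, for cytochrome c1 (chromosome 15, 76343523 to 76346260, plus strand), had 74.9, 79.3 and 69.1 CPM in WT and 85.5, 83.4 and 86.5 CPM in KO. It rose 1.14-fold (0.19 ± 0.06, edgeR adjusted p = 0.0338), with every KO library above every WT library, but was not called without WT 1, WT 3 or KO 3 (edgeR adjusted p up to 0.121) or by the DESeq2 Wald test (log2 fold change of Cyc1 0.20, adjusted p = 0.0511). Uqcc2 encodes an assembly factor and not a subunit. It rose from 15.2 ± 1.85 to 18.9 ± 1.29 CPM (SD; 0.32 ± 0.11, edgeR adjusted p = 0.0436), a call kept in 7 of 15 alternatives. That call was lost by the DESeq2 Wald test and with the replicate number as a block. It was also lost without KO 1, KO 3, WT 1, WT 2 or WT 3, and without WT 2 and KO 1 together.

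The other members of complex III did not pass. Uqcrc2, for a core protein and chosen after its values were seen, had 80.9 ± 1.89 and 77.0 ± 1.74 CPM (SD). Uqcrc1, for the partner core protein and likewise chosen afterwards, varied far more within genotypes, with 60.4, 106 and 97.5 CPM in WT and 74.8, 103 and 92.0 CPM in KO. WT 1 and KO 1 were low in it, and its 95% interval was correspondingly wide, from -0.32 to 0.38.

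Complex IV, cytochrome c oxidase, had 3 genes lower and 0 higher of 13 tested. Cox7a2l, for a factor that joins complexes III and IV into supercomplexes and of which C57BL/6 mice carry a shortened allele (chromosome 17, 83501918 to 83517330, minus strand), had 344, 341 and 307 CPM in WT and 247, 229 and 243 CPM in KO. The genotypes were well apart, and the level in KO was 1.38-fold lower (-0.47 ± 0.07 on the log2 scale, edgeR adjusted p = 0.000227). A pseudogene, Gm6969, shares 13.8% of its transcript sequence and had 23 to 54 reads per library, against 3861 to 5822 of Cox7a2l. Cox7a1, the isoform of heart and skeletal muscle (chromosome 7, 30184144 to 30186078, plus strand), was low, with 2.90, 2.78 and 2.66 CPM in WT and 1.15, 1.42 and 1.45 CPM in KO. It fell 2.07-fold (-1.05 ± 0.23, edgeR adjusted p = 0.00466), with no overlap. Its ubiquitous counterpart Cox7a2 had 50.8, 58.7 and 46.5 CPM in WT and 49.9, 45.7 and 50.6 CPM in KO and was not called (-0.09 ± 0.08, edgeR adjusted p = 0.449). Cox7c, for a small structural subunit, fell from 91.6 ± 9.86 to 77.2 ± 6.91 CPM (SD; edgeR adjusted p = 0.0426). Its genotypes overlapped and 22.1% of its sequence is shared with other genes. The call was lost in 6 of 15 alternatives, with an adjusted p up to 0.351.

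Cox4i2, the paralog of Cox4i1 known for its response to low oxygen, was read 6, 14 and 5 times in the WT libraries and 2, 3 and 1 times in the KO libraries, too low for the test. All KO counts were below all WT counts, and the ratio of summed, scaled counts was 4.64-fold in favour of WT (exact 95% interval 1.86 to 13.8, counting error only). WT 2 held 14 of the 25 WT reads, and without it the ratio was 3.04 (interval 1.03 to 10.02), a setting chosen after seeing the data. Without WT 2 and KO 1 together it was 2.97 (interval 0.881 to 12.8). Cox4i1 had 159, 176 and 148 CPM in WT and 154, 126 and 144 CPM in KO, which overlapped (-0.19 ± 0.08, edgeR adjusted p = 0.112). Cox4i2 was a minor form throughout, with 0.332 ± 0.17% of the pair per kilobase of mRNA in WT and 0.087 ± 0.0535% in KO (SD; exact permutation p = 0.10, 0.125 adjusted over 5 shares). Cox6a1, for the ubiquitous form of a subunit that modulates the enzyme's response to ATP, had 249 ± 20.1 and 252 ± 5.68 CPM. Its muscle paralog Cox6a2 was read 18, 23 and 5 times in the WT libraries and 30, 27 and 26 times in the KO libraries, without overlap. That is 0.965 ± 0.581 against 1.58 ± 0.0697 CPM, and the log2 fold change of 0.70 ± 0.38 did not pass (edgeR adjusted p = 0.209). Cox6b2, for a testis isoform, had 2 to 8 reads per library and was not tested. Of the 10 ubiquitous subunit genes, 8 had a log2 fold change below 0, their median was -0.14, and Cox7c alone was called.

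Complex V, the ATP synthase, had 2 genes lower and 0 higher of 16. Genes of the catalytic head were level: Atp5a1 (α subunit) had 584, 582 and 582 CPM in WT and 580, 585 and 597 CPM in KO, a log2 fold change of 0.01 ± 0.05 with a 95% interval of -0.11 to 0.13. Atp5b (β subunit, which holds the catalytic sites) had 570 ± 23.1 and 593 ± 10.5 CPM (interval -0.07 to 0.18). In the peripheral stalk, which holds the head still against the rotor, all 4 genes had log2 fold changes below 0, from -0.23 to -0.12, and Atp5j alone was called. Atp5j, for coupling factor 6, had 75.2, 74.6 and 68.9 CPM in WT and 67.9, 56.7 and 61.4 CPM in KO. WT 3 and KO 1 lay close together without overlapping, and the fall was 1.18-fold (-0.23 ± 0.07, edgeR adjusted p = 0.0286). The call was lost with library size only and without WT 1, WT 2, KO 2 or KO 3 (edgeR adjusted p up to 0.121). Atp5s encodes factor B, which is not part of the core enzyme. It fell from 5.79 ± 0.169 to 4.25 ± 0.329 CPM (SD; edgeR adjusted p = 0.0411), a call kept in 4 of 15 alternatives.

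The ring that turns with proton flow is built from identical mature c subunits encoded by Atp5g1, Atp5g2 and Atp5g3. None was called. Atp5g1 had 37.7, 39.9 and 37.8 CPM in WT and 41.9, 42.0 and 42.9 CPM in KO, with no overlap (0.14 ± 0.07, edgeR adjusted p = 0.149). Atp5g2 had 86.0 ± 4.10 and 78.5 ± 4.41 CPM and Atp5g3 104 ± 9.96 and 110 ± 5.38 CPM (SD). The share of Atp5g2 in their joint level per kilobase was 47.6%, 47.4% and 49.4% in WT and 43.3%, 43.3% and 45.8% in KO, a difference of -3.94 percentage points without overlap (exact permutation p = 0.10, 0.125 adjusted over 5 shares). The share of Atp5g3 was higher by 3.44 points, likewise without overlap and with the same p. For Atp5g2, 38.3% of the transcript sequence also occurs in other annotated genes, so its level and share are uncertain.

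Levels per kilobase of mRNA (RPKM) put the complexes in the order IV, V, II, III and I by their medians in both genotypes. The median tested member had 38.3, 99.6, 51.1, 130 and 113 RPKM in WT for complexes I to V, and 37.1, 95.3, 49.7, 129 and 111 RPKM in KO. Cox6a1 was highest of all at 436 RPKM in WT, ahead of Cox7a2l at 307 RPKM and Atp5b at 297 RPKM, and Ndufb2 was lowest of those tested at 0.392 RPKM. The Ndufb2 value rests on 10 to 22 reads per library and an annotated mRNA length of 2413 bases. Whether its reads were lost in counting was not tested. The RPKM of Cox7a2l in KO was 222. Summed over members, complex IV stood at 1459, 1518 and 1298 CPM in WT and 1320, 1187 and 1281 CPM in KO, which overlapped at WT 3 and KO 1. Complex I summed to 1560 ± 127 and 1514 ± 60.1 CPM, complex II to 637 ± 5.84 and 634 ± 11.7 CPM, complex III to 680 ± 38.2 and 655 ± 16.9 CPM, and complex V to 2295 ± 106 and 2252 ± 45.9 CPM (SD, n = 3 each). In cell populations, fewer cells that use a gene and less RNA per cell cannot be told apart.

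**Figure D4:**
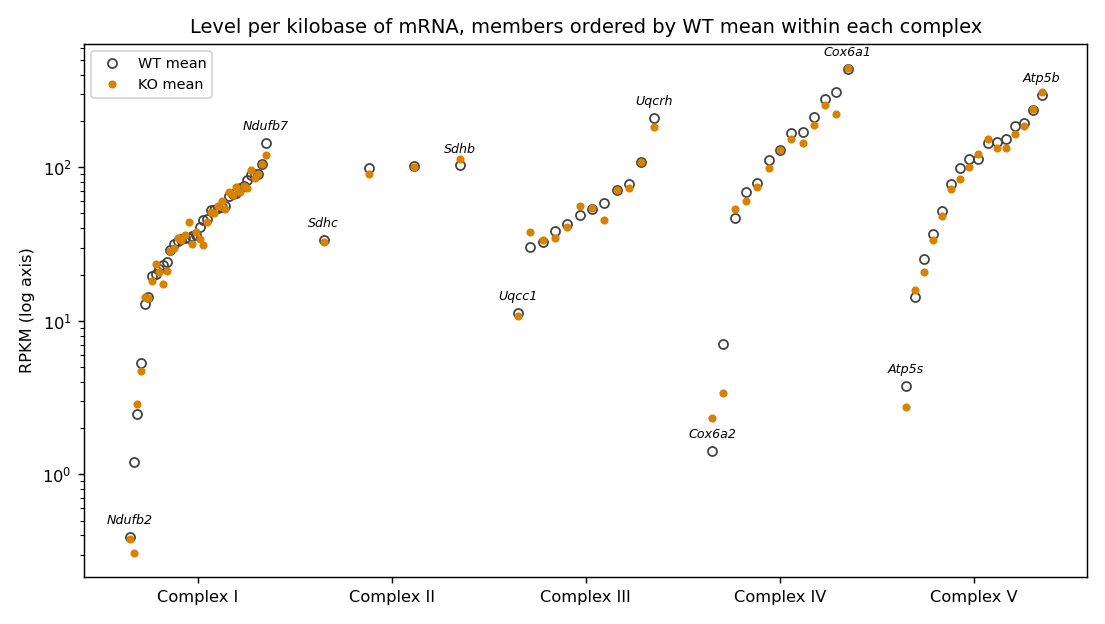
Mean RPKM in WT (open circles) and KO (dots) on a log axis for the 83 tested members, ordered by WT level within each complex; the lowest and highest member of each complex are named. Complex I runs from Ndufb2 at 0.392 to Ndufb7 at 144 RPKM in WT, and complex IV reaches 436 RPKM at Cox6a1.

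Upstream sequence is given for 3 of the genes called lower in all alternatives, to show which letters precede them. The fourth such gene, Cox7a2l, is not printed because its GENCODE start lies far upstream of the RefSeq start, and its RefSeq window holds no match to the letters marked here. RefSeq promoter windows (GRCm38.p6) matched 70 of the 85 members, 2 of them through a synonym. The printed stretch is the part of the 250 bases before the RefSeq start that also lies before the GENCODE start, 5′ to 3′ on the gene's strand. Capitals mark matches on either strand to ACGTG or GCGTG, the core letters bound by HIF proteins. The stretches are chr17:31519865-31520114 (plus strand) for Ndufv3, chr13:30545363-30545566 (minus strand) for Uqcrfs1 and chr7:30183921-30184143 (plus strand) for Cox7a1.
Ndufv3: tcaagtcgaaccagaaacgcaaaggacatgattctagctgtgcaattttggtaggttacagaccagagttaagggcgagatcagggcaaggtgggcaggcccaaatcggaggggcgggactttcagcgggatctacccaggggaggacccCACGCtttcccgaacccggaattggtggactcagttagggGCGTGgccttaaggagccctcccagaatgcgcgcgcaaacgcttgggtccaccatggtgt
Uqcrfs1: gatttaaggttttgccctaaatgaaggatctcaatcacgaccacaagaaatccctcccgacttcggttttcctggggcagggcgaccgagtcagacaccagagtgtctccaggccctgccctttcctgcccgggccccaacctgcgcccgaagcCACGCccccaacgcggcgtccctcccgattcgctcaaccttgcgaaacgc
Cox7a1: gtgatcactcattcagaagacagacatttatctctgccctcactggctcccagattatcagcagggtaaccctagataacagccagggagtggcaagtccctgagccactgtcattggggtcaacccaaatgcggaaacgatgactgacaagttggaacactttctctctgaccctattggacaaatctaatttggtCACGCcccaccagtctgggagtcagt
The matches begin 100 and 60 bases before the start in Ndufv3, 96 in Uqcrfs1 and 53 in Cox7a1, and all are GCGTG or its reverse complement. A second match in the Cox7a1 window lies in the 27 bases left out. Such short matches are common: ACGTG or GCGTG occurs in the 250 bases before at least 1 start of 61.2% of tested genes with a window and of 52.9% of the members (37 of 70). CCGGAAG, a site of ETS factors such as GABP, was found in 17.1% of members and 15.9% of tested genes. A match is a run of letters and was not tested as a binding site.

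Related nuclear genes were taken from lists chosen by function. The lists covered assembly factors, electron carriers, nucleotide and phosphate carriers with porins, biogenesis regulators, mitophagy, and import with chaperones. Together these genes were called in 25 of 120 tested cases, 12 higher and 13 lower. That is 20.8%, against 25.8% of all tested genes. Cycs, for cytochrome c, the mobile carrier between complexes III and IV, had 41.2, 40.9 and 39.8 CPM in WT and 58.2, 54.8 and 56.6 CPM in KO. All KO libraries lay above all WT libraries, and it rose 1.39-fold (0.48 ± 0.06, edgeR adjusted p = 7.95e-05), and Coq2, for a step of coenzyme Q synthesis, rose by 0.32 on the log2 scale (edgeR adjusted p = 0.0489). Those were the 2 called of 15 electron carrier genes (13.3%). Complex IV assembly factors were called in 8 of 22 cases (36.4%), 5 higher and 3 lower. Cmc2 rose 1.73-fold and Cox15, which makes haem A, 1.27-fold, whereas Higd1a, a hypoxia-inducible partner of complex IV, fell 1.55-fold and Cmc1 fell by 0.38 on the log2 scale. Among complex I assembly factors 1 rose (Ndufaf5, 1.41-fold) and 1 fell (Ndufaf7, 1.31-fold) of 18 (11.1% called). None of 3, 3 and 5 tested assembly genes for complexes II, III and V was called by edgeR.

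Mitochondrially encoded subunits fell in 5 of 11 tested cases (45.5%) and rose in 0, with a median log2 fold change of -0.16. Of all tested genes 12% fell and 13.8% rose. mt-Co1, for the catalytic subunit of complex IV, fell from 11347 ± 211 to 10144 ± 128 CPM (SD; -0.16 ± 0.02, edgeR adjusted p = 0.000293), but with the GC and length offset its log2 fold change was 0.004. mt-Nd6, for a complex I subunit, fell 1.32-fold. Identical stretches in other annotated genes cover 51.1% of mt-Co1 and 62.2% of mt-Nd4, both called lower. Such stretches cover at least 98% of mt-Co2, mt-Co3, mt-Atp6, mt-Nd3 and mt-Nd4l. Those 5 genes had 1 to 597 reads per library, so their levels cannot be compared with the rest.

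Vdac1, for the outer membrane porin, had 346, 357 and 342 CPM in WT and 221, 212 and 228 CPM in KO and fell 1.58-fold (-0.66 ± 0.06, edgeR adjusted p = 3.98e-06). The ATP/ADP carrier gene Slc25a4 fell 1.16-fold and the phosphate carrier gene Slc25a3 rose 1.14-fold. Of 10 mitophagy genes 5 fell (50%, against 12% of all tested genes) and 0 rose, with Bnip3 at 113 ± 8.48 and 38.1 ± 6.55 CPM and Bnip3l at 353 ± 11.8 and 232 ± 10.2 CPM (SD). Regulators of mitochondrial biogenesis rose in 2 and fell in 0 of 17 cases (11.8% called, Hcfc1 1.53-fold, Pprc1 1.29-fold). Import and chaperone genes were called in 3 of 21 cases (14.3%, against 25.8% of all tested genes), with Tomm20 1.26-fold and Tomm7 1.28-fold lower and Timm50 1.21-fold higher.

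Of the most similar gene groups, TCA cycle enzymes were called in 5 of 18 cases (27.8%, against 25.8% of all tested genes), 3 higher and 2 lower, with a median log2 fold change of 2.5e-05. Mitochondrial ribosomal proteins were called in 5 of 77 (6.49%, 3 higher, 2 lower, median 0.04), and cytosolic ribosomal proteins in 64 of 85 (75.3%, 1 higher, 63 lower, median -0.31). Whether these shares differ from that of the chain was not tested.

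**Figure D5:**
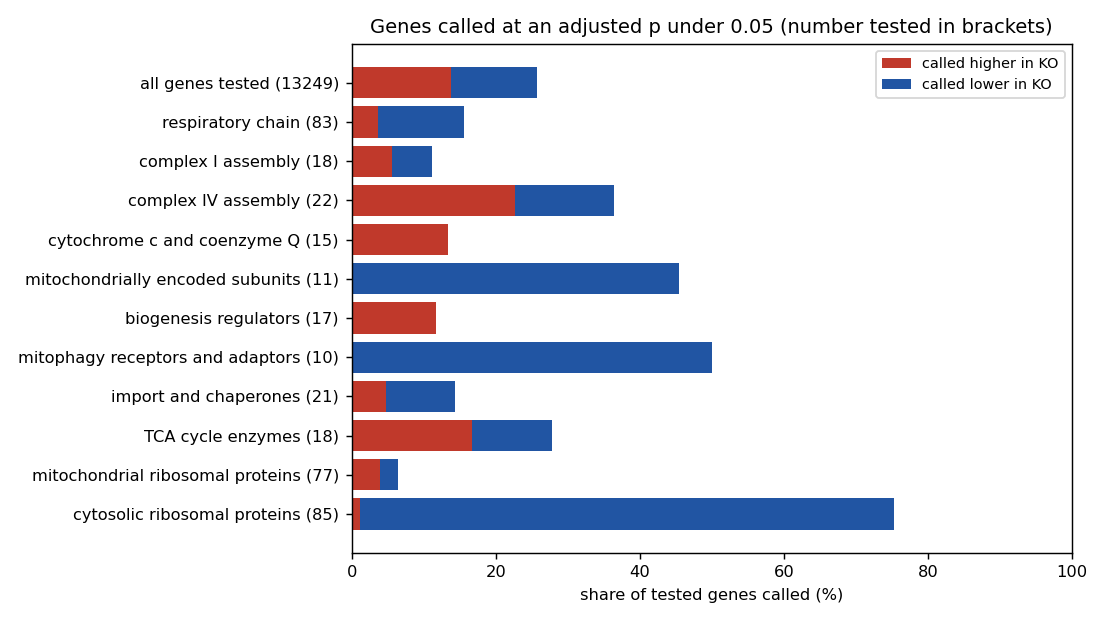
Share of tested genes (x axis, percent) called higher (red) or lower (blue) in KO at an adjusted p under 0.05, for all genes, the respiratory chain and related lists; numbers tested stand in brackets. The chain, at 13 of 83, lies below the 25.8% of all genes, and cytosolic ribosomal proteins, at 64 of 85, have the longest bar.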

How the data were processed

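The authors deposited raw read counts per gene symbol for 6 libraries, 3 of each genotype, not normalized. Build mm10 and, among other tools, HTSeq, HISAT2, TopHat2 and DESeq2 are named per the submitters' processing notes. Annotation, strand setting and the handling of multiply aligned reads were not found in the labels. Of 23 repeated symbols, the row with most reads kept the name. Rows passing filterByExpr (minimum count 10) were kept: 13249 were tested and 17338 were not. At least 99.75% of each library's counts were in tested rows. Counts were scaled by TMM and tested with edgeR 4.0.16 in R 4.3.3 (quasi-likelihood, genotype only, Benjamini-Hochberg over all tested rows, threshold 0.05). The SE is the log2 fold change divided by the square root of F, and 95% intervals use the fit's degrees of freedom. RPKM is CPM per kilobase of the median mRNA of the best APPRIS rank in GENCODE M21, in which 98.5% of tested rows had a model. RPKM depends on that annotated length. Shared sequence is the share of a gene's 50-base words found in transcripts of other genes.

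Members and lists were chosen with earlier results of these data known. Named members are up to 3 called in each direction per complex by adjusted p, the highest and lowest fold change per complex, and fixed paralog sets and catalytic subunits. Related lists give up to 2 called genes per direction. Others were chosen after their values were seen. A group of core complex I genes is not reported here.

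Alternatives were DESeq2 size factors, library size only, no filter, 10 counts in every library of a genotype, the Wald test of DESeq2 1.42.0, voom of limma 3.58.1, a replicate block, a GC and length offset, each library left out, and WT 2 and KO 1 left out together. Tested on 3 simulated tables of 13249 genes for KO against WT, the procedure found 24.7% of the genes altered by a factor of 1.25, 63.3% of those altered by 1.5, 84% by 2 and 95.3% by 4. False calls made up 6.53%. The genes altered in each simulated table were drawn from all levels and were far fewer than the 25.8% called in the data. These rates therefore need not hold for the respiratory chain. No replicate pair agreed within sampling noise (chi-square per degree of freedom at least 4.16).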

Additional observations from a re-analysis of the deposited data

How the results depend on the processing

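With each library left out in turn, members called lower ran from 4 to 19 and higher from 0 to 3, against 10 and 3. By complex, lower calls ran from 1 to 8 (I), 1 to 2 (III), 2 to 5 (IV) and 0 to 4 (V), and higher calls from 0 to 1 (I) and 0 to 2 (III). Over all genes 1182 to 1992 were higher and 945 to 1622 lower, and in the related lists 6 to 11 and 6 to 15.

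With the DESeq2 Wald test 1 member rose, 0 in complex III. With the GC and length offset 7 members rose, 3 in complex I, 1 in IV and 1 in V, and 1 fell in complex V. With library size only 5 rose and 5 fell, with 2 higher and 2 lower in complex I, 1 higher in II and 0 lower in V. With no low-count filter 2 fell in complex III and 1 in V. Without WT replicate 2 and KO replicate 1, complex I had 2 higher and 1 lower and complex III 1 higher and 2 lower.

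Deviations of same-numbered WT and KO libraries correlated at 0.01, -0.11 and 0.08, and those of differently numbered ones at -0.21 to 0.18. Whether same-numbered libraries were prepared together is not in the labels, and these correlations cannot decide it. With the replicate block 9 members fell and 2 rose, with 1 higher in complex III and 1 lower in V. Over all genes 11.4% were lower and 13.1% higher in that fit.

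Signs changed in these log2 fold changes. With the GC and length offset Cox7a2 was 0.062, Ndufa4 0.15 and the called mt-Co1 0.0038. With library size only Ndufa4 was 0.030, Ndufs1 0.0052 and Sdha 0.022. With no filter the log2 fold change of Ndufa4 was 0.00859 and Sdha 0.0019. Without WT replicate 2 and KO replicate 1 Ndufa4 was 0.00654 and Sdhc 0.015. With each library left out in turn, the log2 fold change of Cox6a1 ran from -0.038 to 0.066, the log2 fold change of Cox7a2 from -0.16 to 0.00269, that of Ndufa4 from -0.053 to 0.090, the log2 fold change of Ndufs1 from -0.069 to 0.00411 and the log2 fold change of Sdha from -0.031 to 0.00907. There the log2 fold change of Sdhc stayed below 0, from -0.082 to -0.00665. The cause of these changes was not tested. The 5 isoform shares kept their direction with raw counts and without each library.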
